A study of Mus musculus with 6 samples.

Results

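The interferon-inducible GTPases of the Gbp and Irg families were examined in the liver of mice lacking Igfbp7. The 10 genes were Gbp2, Gbp3, Gbp6 and Gbp7 of the guanylate-binding protein family and Ifi47, Iigp1, Tgtp1, Irgm1, Irgm2 and Igtp of the immunity-related GTPase family. They were taken by gene symbol from the 22609 genes in the deposited count files, and all 10 had a row. Adult liver was compared between 3 IGFBP7 knock-out samples, from C57BL/6 mice whose Igfbp7 gene was removed with a Cre-loxP strategy, and 3 wild type C57BL/6 samples. Neither the Cre driver nor sex, age in weeks or infection status is given in the sources used here. Whether each library is a different mouse is not given either, and p-values therefore measure a spread that may be technical. RNA sequencing of the livers gave 18912701 to 22419411 gene counts per knockout library and 16712568 to 21478524 per wild type library. Levels are counts scaled to a common library total (CPM), with library sizes adjusted by the trimmed mean of M values.

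Both families are made in response to interferons, above all interferon-gamma, which acts through the receptor chains Ifngr1 and Ifngr2, the kinases Jak1 and Jak2 and transcription factors such as Irf1. In mouse cells the proteins gather on the vacuoles that hold parasites and bacteria and disrupt them, and some Gbp proteins also bring bacterial lipopolysaccharide to inflammatory caspases. The Irg family holds effector proteins, among them Iigp1 (Irga6), Tgtp1 (Irgb6) and Ifi47 (Irgd), and the regulators Irgm1, Irgm2 and Igtp (Irgm3), which sit on the cell's own membranes and keep the effectors inactive there. In liver, macrophages, endothelial cells and hepatocytes can all respond to interferon.

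The labels held for the deleted gene and the tissue. Igfbp7 had 5, 2 and 9 counts in the knockout libraries and 1438, 1705 and 1055 counts in the wild type libraries. The hepatocyte marker genes summed to 104400 to 128200 CPM in knockout livers and 96930 to 116000 CPM in wild type livers. A clock score was taken as the mean log2 CPM of evening-phase minus morning-phase genes. It was 3.64, 4.22 and 4.03 in knockout libraries 1 to 3 and 0.14, 2.92 and 3.39 in wild type libraries 1 to 3. All 3 knockout scores lay above all 3 wild type scores, so a fit with this score cannot fully separate it from genotype. Wild type library 1 was far below the others. Wild type library 2 was the highest of the 6 libraries for each of the 9 GTPase genes with counts. Values that moved by over 1.5 times without wild type library 2 are also given without it.

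In the knockout livers, the GTPase transcripts had lower mean levels for every member with counts, but the size differed widely and 1 member passed the test over all genes. Ifi47 fell to 0.419 of its wild type level. Gbp2, Gbp3, Gbp6, Irgm1 and Irgm2 had all 3 knockout values below all 3 wild type values without passing that test. Igtp, Gbp7 and Iigp1, the most abundant member, overlapped between the genotypes. Tgtp1 had no counts in any library.

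**Figure D1:**
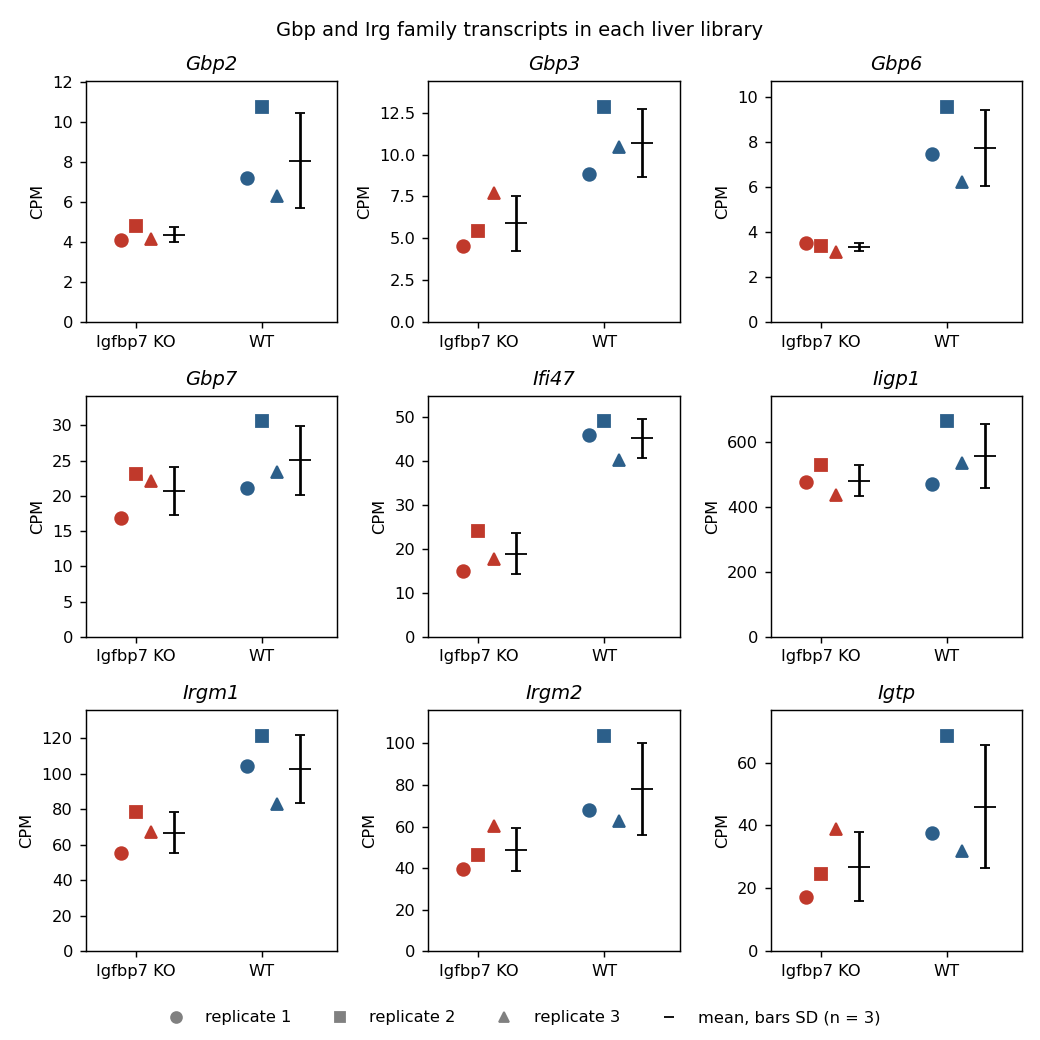
Level of each of the 9 members with counts, in CPM (y axis, from 0), in Igfbp7 knockout (left, red) and wild type (right, blue) liver libraries; symbols mark the replicate and black bars the mean and SD (n = 3). The genotypes do not overlap for Gbp2, Gbp3, Gbp6, Ifi47, Irgm1 and Irgm2, and overlap for Gbp7, Iigp1 and Igtp.

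Ifi47 encodes an effector GTPase that interferon-gamma induces. It stood at 14.9, 24.0 and 17.8 CPM in knockout libraries 1 to 3, against 46.0, 49.0 and 40.3 CPM in wild type libraries 1 to 3. The highest knockout value lay well below the lowest wild type value. The means were 18.9 ± 4.7 CPM in knockout and 45.1 ± 4.4 CPM in wild type livers (SD, n = 3 each), and the log2 fold change was -1.26 ± 0.17 (SE). In edgeR's quasi-likelihood test over all 12522 genes tested, the adjusted p was 0.0356. Leaving out 1 library kept the direction at -1.46 to -1.11, but the adjusted p passed the threshold only without knockout library 2 (0.0323) or wild type library 3 (0.0438), and was 0.0594 without knockout library 1, 0.0739 without knockout library 3, 0.117 without wild type library 1 and 0.165 without wild type library 2. With the clock score, which itself separated the genotypes, as a covariate the log2 fold change was -1.27 (edgeR adjusted p = 0.368).

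Iigp1 encodes Irga6, an effector that coats parasite vacuoles. Its level was 478, 531 and 437 CPM in knockout libraries 1 to 3, against 472, 664 and 536 CPM in wild type libraries 1 to 3. Knockout libraries 1 and 2 exceeded wild type library 1, and all knockout libraries were below wild type library 2. The log2 fold change was -0.21 ± 0.14 (SE, edgeR adjusted p = 0.537), and it was -0.07 without wild type library 2 and -0.32 without wild type library 1. Iigp1 alone held 66.4% to 75.4% of the members' counts in knockout libraries and 61.1% to 67.0% in wild type libraries, so the sum over the 10 genes mainly follows this one gene. Without Iigp1, the other members summed to 156, 210 and 221 CPM in knockout libraries 1 to 3 and 300, 406 and 264 CPM in wild type libraries 1 to 3, with no overlap.

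Tgtp1 encodes Irgb6, an effector that is among the first to reach a parasite vacuole. It was listed at 0 counts in all 6 libraries, where a count of 0 allows up to 0.142 to 0.164 CPM in knockout libraries and 0.140 to 0.173 CPM in wild type libraries (3 counts per library, counting error only). Its neighbour Tgtp2 had 9, 7 and 15 counts in knockout libraries 1 to 3 and 26, 33 and 15 counts in wild type libraries 1 to 3. In the GENCODE M21 transcripts, 79.4% of the 50-base words of Tgtp1 also occur in Tgtp2, and reads that fit several places are not in the gene counts, so neither gene's level can be read from these files. The log2 fold change of Tgtp2, which is also that of the summed pair, was -1.29 (edgeR adjusted p = 0.157).

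The 3 Irgm regulators had log2 fold changes of -0.77 to -0.62, none past the threshold. Irgm1, whose loss in mice causes interferon-dependent collapse of blood cell production, was at 55.0, 78.2 and 67.1 CPM in knockout libraries 1 to 3 and 104, 121 and 83.0 CPM in wild type libraries 1 to 3. Its genotypes did not overlap, with the highest knockout value close to the lowest wild type value, and its log2 fold change was -0.62 ± 0.16 (SE, edgeR adjusted p = 0.138). Irgm2, a regulator found at the Golgi apparatus, was at 39.8, 46.5 and 60.2 CPM in knockout libraries and 68.1, 104 and 62.5 CPM in wild type libraries 1 to 3. Here too the genotypes were separate by a narrow gap, between knockout library 3 and wild type library 3, and the log2 fold change of -0.68 ± 0.21 (SE, edgeR adjusted p = 0.186) was -0.42 without wild type library 2. Igtp, a regulator found at the endoplasmic reticulum, was at 17.3, 24.6 and 39.0 CPM in knockout libraries and 37.6, 68.4 and 32.0 CPM in wild type libraries. It varied most among replicates, with a coefficient of variation of 40.9% in knockout and 42.7% in wild type livers, and knockout library 3 exceeded 2 of the wild type libraries. Its log2 fold change was -0.77 ± 0.34 (SE, edgeR adjusted p = 0.323) and -0.37 without wild type library 2.

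Among the guanylate-binding proteins, Gbp6 was the member nearest to the threshold. It was at 3.50, 3.38 and 3.14 CPM in knockout libraries 1 to 3 and 7.49, 9.58 and 6.23 CPM in wild type libraries. The knockout values lay within a narrow range, with a coefficient of variation of 5.51%, below every wild type value. Its log2 fold change was -1.22 ± 0.19 (SE, edgeR adjusted p = 0.0575). Of the 50-base words of its transcripts, 49.9% also occur in other genes, mainly in Gbp10, so its level is counted low. Gbp10 itself was at 3.01 ± 1.51 CPM in knockout and 8.64 ± 2.504 CPM in wild type livers (SD, n = 3 each), and with the 2 genes summed the log2 fold change was -1.38 (edgeR adjusted p = 0.0595).

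Gbp2, a GTPase that coats the vacuole of Toxoplasma in mouse cells, was at 4.12, 4.80 and 4.17 CPM in knockout libraries 1 to 3 and 7.17, 10.8 and 6.29 CPM in wild type libraries. The genotypes were separate, and the log2 fold change was -0.89 ± 0.22 (SE, edgeR adjusted p = 0.121). Gbp3 was at 4.54, 5.46 and 7.70 CPM in knockout libraries and 8.82, 12.9 and 10.4 CPM in wild type libraries, a log2 fold change of -0.86 ± 0.22 (SE, edgeR adjusted p = 0.134). Its knockout library 3 came nearest to the wild type range. Gbp7, a neighbour of Gbp3 in the same cluster, was at 16.9, 23.1 and 22.1 CPM in knockout libraries and 21.2, 30.6 and 23.4 CPM in wild type libraries. Knockout libraries 2 and 3 exceeded wild type library 1, and the log2 fold change was -0.28 ± 0.17 (SE, edgeR adjusted p = 0.480). It was -0.11 without wild type library 2 and -0.15 without knockout library 1.

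The members' counts are set here against all genes tested. The members were chosen with earlier results of these data known, so these shares are a description and not independent support. The median log2 fold change of the 9 tested members was -0.77, against 0.001 over all 12522 genes, and -0.49 without wild type library 2. By edgeR's adjusted p, 1 of 9 members was called lower, where 0.0878% of all genes were. At an unadjusted p under 0.05, 7 of 9 were lower, where 7.35% of all genes were, and without 1 library this count was 6 or 7. In 6 of 9 members all 3 knockout values lay below all 3 wild type values, which held for 10.1% of all genes. All 9 had a log2 fold change below 0, as did 49.7% of all genes, and 7 of 9 had one of -0.5 or lower, as did 6.59% of all genes. DESeq2 called 6 of the 9 lower, namely Ifi47, Gbp6, Gbp2, Gbp3, Irgm1 and Irgm2, where it called 1.73% of the 12032 genes with an adjusted p. The lowest member count in any library was 62, so the filter on low counts kept each of the 9 through both genotypes.

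**Figure D2:**
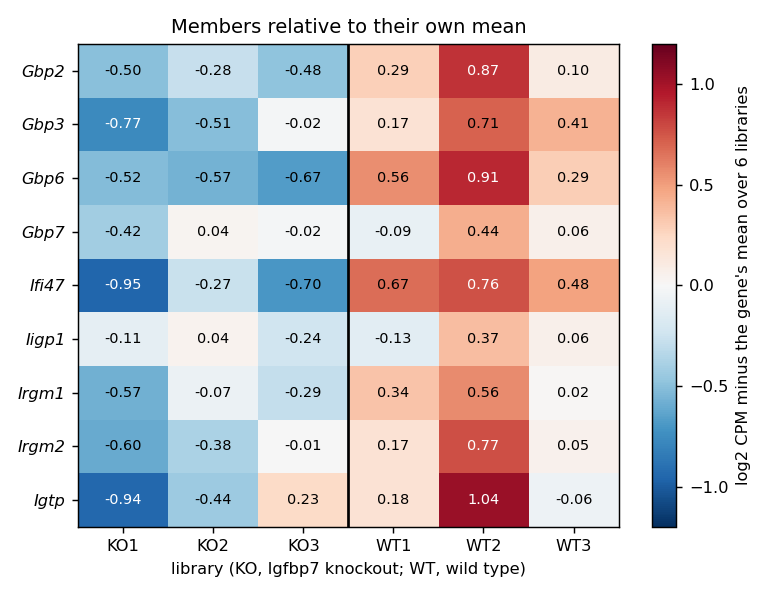
Each cell gives the log2 CPM of a member (rows) in a library (columns, knockout left of the line, wild type right) minus that gene's mean over the 6 libraries. Wild type library 2 is the highest in every row, knockout library 1 is the lowest in 7 of 9 rows, and the rows of Gbp7 and Iigp1 are the palest.

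The members shared a high value in wild type library 2 and differed in their order among the knockout libraries, where Igtp was highest in library 3, Gbp6 and Iigp1 were lowest in library 3, and Ifi47 was highest in library 2. Wild type library 2 was 1.14 to 1.97 times the mean of the other wild type libraries, with Ifi47 at the low end and Igtp at the high end. The mean of the members' centred log2 CPM was -0.60, -0.27 and -0.24 in knockout libraries 1 to 3 and 0.24, 0.71 and 0.16 in wild type libraries 1 to 3. Over these 6 libraries, the other genes with the profile nearest to that mean included Sash3, Usp18, Btbd11 and Mlkl, with a root mean square difference of 0.096, 0.111, 0.120 and 0.136 on the log2 scale. Usp18, which removes the ubiquitin-like protein Isg15 from other proteins, was at 10.7 ± 1.4 CPM in knockout and 17 ± 1.7 CPM in wild type livers (SD, n = 3 each). Mlkl, the pore-forming protein of necroptosis, was at 3.37 ± 0.89 CPM in knockout and 6.08 ± 1.10 CPM in wild type livers (SD, n = 3 each). None of these 4 passed the threshold, and libraries share their depth and scaling across genes. These genes were picked for a profile that already separates the genotypes. Their lower knockout means follow from that choice and give no further support.

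Promoter sequences are shown for 7 members, so that the known interferon response elements can be looked for in them. They are the 250 bases before each RefSeq gene start in assembly GRCm38.p6, which is not the build named in the submitters' processing notes. Capitals mark the gamma-activated site (GAS), spelled TTCNNNGAA and identical on both strands, and the interferon-stimulated response element (ISRE), spelled GAAA, any 2 bases and GAAA, or TTTC, any 2 bases and TTTC on the other strand. No GAS overlapped an ISRE in these windows.
Ifi47, chr11:49076337-49076586, plus strand: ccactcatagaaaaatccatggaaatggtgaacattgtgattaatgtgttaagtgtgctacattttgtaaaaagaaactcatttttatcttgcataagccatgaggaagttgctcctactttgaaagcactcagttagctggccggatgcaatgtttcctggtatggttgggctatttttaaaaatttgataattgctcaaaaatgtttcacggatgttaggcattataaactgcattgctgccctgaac
Irgm1, chr11:48871421-48871670, minus strand: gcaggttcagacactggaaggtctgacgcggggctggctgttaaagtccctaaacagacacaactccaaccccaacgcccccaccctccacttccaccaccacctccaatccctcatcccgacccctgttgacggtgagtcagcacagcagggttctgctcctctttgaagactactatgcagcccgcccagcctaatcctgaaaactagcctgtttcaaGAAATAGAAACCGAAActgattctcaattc
Irgm2, chr11:58214727-58214976, plus strand: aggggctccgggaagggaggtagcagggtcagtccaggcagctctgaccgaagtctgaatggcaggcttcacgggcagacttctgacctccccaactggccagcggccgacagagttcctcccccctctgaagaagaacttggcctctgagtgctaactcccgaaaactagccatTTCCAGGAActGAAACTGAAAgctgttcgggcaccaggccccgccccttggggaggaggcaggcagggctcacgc
Igtp, chr11:58199306-58199555, plus strand: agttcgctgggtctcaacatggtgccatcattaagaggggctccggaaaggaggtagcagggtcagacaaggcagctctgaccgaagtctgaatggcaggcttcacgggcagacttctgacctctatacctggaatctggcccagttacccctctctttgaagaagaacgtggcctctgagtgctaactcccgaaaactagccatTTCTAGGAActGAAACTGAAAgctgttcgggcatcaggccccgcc
Tgtp1, chr11:48992247-48992496, minus strand: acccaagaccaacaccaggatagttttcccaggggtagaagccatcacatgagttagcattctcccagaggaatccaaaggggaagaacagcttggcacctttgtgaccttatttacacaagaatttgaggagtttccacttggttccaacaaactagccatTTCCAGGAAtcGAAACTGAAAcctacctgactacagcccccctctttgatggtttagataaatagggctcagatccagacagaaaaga
Gbp2, chr3:142620413-142620662, plus strand: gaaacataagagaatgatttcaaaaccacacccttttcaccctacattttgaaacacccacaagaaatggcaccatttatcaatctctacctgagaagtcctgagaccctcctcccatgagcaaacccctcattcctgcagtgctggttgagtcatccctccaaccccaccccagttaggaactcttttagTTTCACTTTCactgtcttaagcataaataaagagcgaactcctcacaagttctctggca
Gbp7, chr3:142530086-142530335, plus strand: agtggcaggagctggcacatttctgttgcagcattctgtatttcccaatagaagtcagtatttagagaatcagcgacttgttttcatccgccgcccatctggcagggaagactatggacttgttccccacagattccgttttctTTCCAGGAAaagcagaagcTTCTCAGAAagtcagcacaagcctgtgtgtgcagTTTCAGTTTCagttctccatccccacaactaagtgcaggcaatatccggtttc

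Of the 10 members 8 had a window in the RefSeq table, and Gbp3 had 2. The GAS letters were in 4 of the 9 windows (Gbp7, Tgtp1, Igtp and Irgm2), against 7.02% of all 32851 windows. The ISRE letters were in 7 of the 9, those of all 8 genes except Ifi47 and the second start of Gbp3, against 2.98% of all windows. Irgm2, Igtp and Tgtp1 share one arrangement, in which the ISRE begins 11 bases after the GAS does, and Tgtp2 has the same spacing. Both elements occurred in 0.332% of all windows. The window of Gbp7 holds 2 GAS and 1 ISRE, and that of Ifi47 holds neither spelling. A match is a string of letters and not a measured binding site.

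Per length of exon, the members kept a similar order in both genotypes. Iigp1 was at 82.7 ± 8.1 CPM per kilobase in knockout and 95.7 ± 16.8 in wild type livers (SD, n = 3 each), far above the others. Igtp followed at 13.3 ± 5.5 CPM per kilobase in knockout and 22.8 ± 9.7 in wild type livers, and Irgm2 at 13.2 ± 2.8 in knockout and 21.2 ± 6.0 in wild type livers. Irgm1 stood at 11.5 ± 2.0 CPM per kilobase in knockout and 17.7 ± 3.3 in wild type livers. Ifi47 was at 7.64 ± 1.88 CPM per kilobase in knockout and 18.2 ± 1.8 in wild type livers, so that it was below Irgm1 in the knockout mean and level with it in the wild type mean. Among wild type livers Igtp, Irgm2, Ifi47 and Irgm1 did not differ beyond their spread. The Gbp members were lower, with Gbp7 at 3.68 ± 0.60 CPM per kilobase in knockout and 4.46 ± 0.88 in wild type livers, Gbp3 at 1.81 ± 0.50 in knockout and 3.28 ± 0.62 in wild type livers, and Gbp2 at 1.73 ± 0.15 in knockout and 3.21 ± 0.94 in wild type livers. Gbp6 came last, at 0.561 ± 0.031 CPM per kilobase in knockout and 1.31 ± 0.28 in wild type livers. Since 49.9% of its 50-base words also occur in other genes, its level is counted low here too. Gbp3 and Gbp2 did not differ beyond their spread in either genotype. Lengths are those of all exons of a gene in GENCODE M21, and the transcripts used in liver may be shorter.

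The difference between Iigp1 and the other members was examined within libraries, as a comparison chosen after the values were seen. The ratio of Ifi47 to Iigp1 counts was 3.12%, 4.52% and 4.07% in knockout libraries 1 to 3 and 9.75%, 7.38% and 7.53% in wild type libraries 1 to 3. Its mean log2 difference was -1.08 (exact 2-sided permutation p = 0.1, the smallest that 3 against 3 libraries allow). Of the 8 members compared with Iigp1, Ifi47, Gbp6, Gbp3, Gbp2 and Irgm1 had all knockout ratios below all wild type ratios, at p = 0.1 each by the exact test and 0.16 when adjusted over the 8. Irgm2, Igtp and Gbp7 overlapped, and for Gbp7 the log2 difference was -0.07 (exact permutation p = 0.7). With 3 libraries on each side, the exact test cannot place any of these differences past a threshold of 0.05. All 8 ratios share Iigp1, the member with the log2 fold change nearest to 0. Ifi47, Gbp6, Gbp3, Gbp2 and Irgm1 were already separate between the genotypes in CPM. The ratios are therefore a description and give no further support.

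The members lie in gene clusters, and relatives outside the list of 10 extend the picture. Of 16 further Gbp, Irg and Gvin genes, the atlastins not counted, 12 were tested. By edgeR 0 of them were called, and 8 were lower and 1, F830016B08Rik, higher at an unadjusted p under 0.05 (7.35% of all genes lower and 8.10% higher). DESeq2 called 4 lower, which were Gbp1, Gbp4, Gbp10 and Gm12250, where it called 1.73% of all genes lower. The median log2 fold change of the 12 tested relatives was -0.71. On chromosome 3, beside Gbp2, Gbp3 and Gbp7, Gbp1 (now named Gbp2b) was at 2.08 ± 0.96 CPM in knockout and 7.29 ± 1.53 CPM in wild type livers (SD, n = 3 each). Its log2 fold change was -1.80 ± 0.33 (SE, edgeR adjusted p = 0.069). Gbp5, a partner of inflammasome assembly, was at -0.61 ± 0.25 (SE). On chromosome 5, beside Gbp6, Gbp4, Gbp8 and Gbp9 were at -0.98 ± 0.20, -0.71 ± 0.25 and -0.70 ± 0.23 (log2 fold change, SE), and the transcribed pseudogene Gbp11 at -0.58 ± 0.49 with overlapping genotypes. With 1 library left out, Gbp11 ran from -1.01 without knockout library 2 to -0.17 without wild type library 2, and was -0.27 without knockout library 1 and -0.97 without wild type library 3. On chromosome 11, Gm12250 (Irgb10), an effector that acts on bacterial membranes, was at 1.33, 1.53 and 2.06 CPM in knockout libraries 1 to 3 and 3.77, 7.90 and 3 CPM in wild type libraries 1 to 3, without overlap, at a log2 fold change of -1.59 ± 0.38 (SE, edgeR adjusted p = 0.120), which was -1.05 without wild type library 2.

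The Irg genes of chromosome 18 stood at other values. Beside Iigp1, Gm4951 (Ifgga2) had 142 ± 7 CPM in knockout and 150 ± 5 CPM in wild type livers (SD, n = 3 each). Its log2 fold change was -0.08 ± 0.08 (SE, edgeR adjusted p = 0.720), and -0.03 without knockout library 3. F830016B08Rik (Ifgga4) was at 55.8, 42.0 and 39.5 CPM in knockout libraries 1 to 3 and 29.4, 25.8 and 38.0 CPM in wild type libraries 1 to 3. All its knockout values were above all its wild type values, as for 10.7% of all genes, with knockout library 3 and wild type library 3 close together, and the log2 fold change was 0.56 ± 0.18 (SE, edgeR adjusted p = 0.187). Thus the 3 tested Irg genes of chromosome 18 had log2 fold changes of -0.21, -0.08 and 0.56, and the 6 tested Irg genes of chromosome 11, from Irgm1 to Gm12250, had -1.59 to -0.62. The difference between the clusters was not tested. The more distant relative Irgq was at -0.29 ± 0.14 (SE), or -0.45 without knockout library 3, and Irgc1 and both 9930111J21Rik genes were too low to test.

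**Figure D3:**
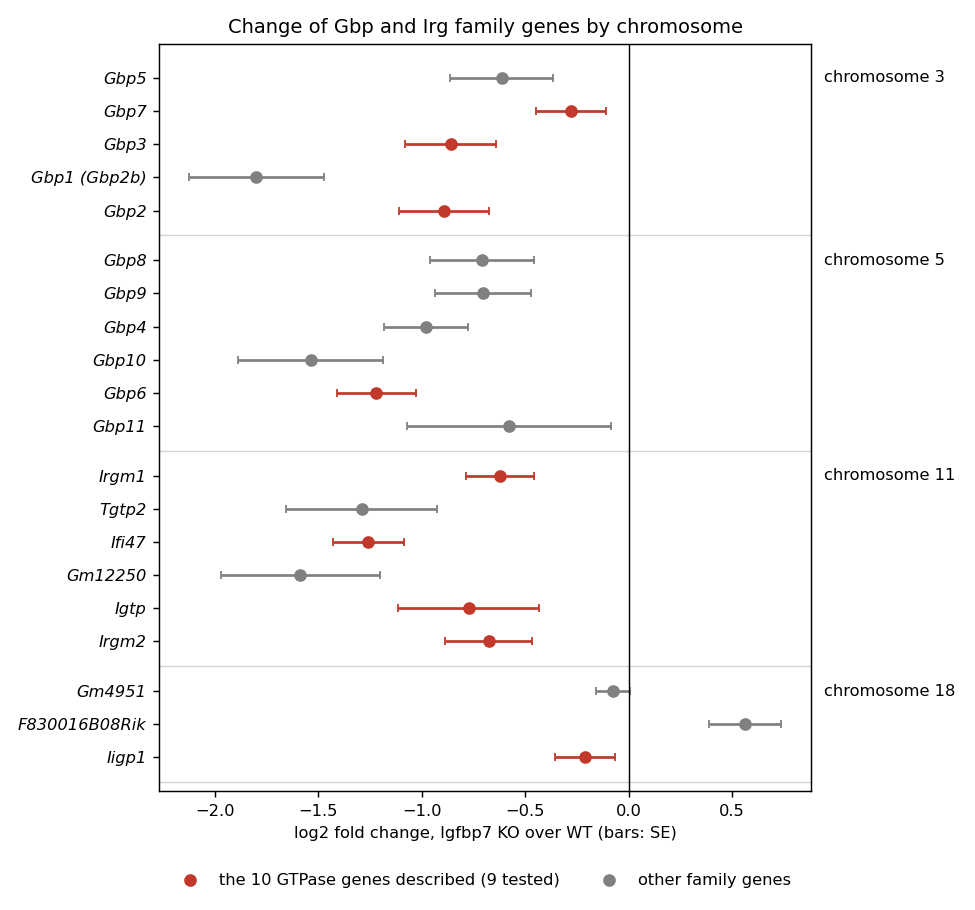
Log2 fold change of knockout over wild type livers (x axis, bars SE) for the tested Gbp and Irg genes, grouped by chromosome in genome order, with the 9 tested members in red and other family genes in grey. Every gene of chromosomes 3, 5 and 11 lies left of 0, and the chromosome 18 genes lie between -0.21 and 0.56.

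The genes of the interferon-gamma pathway mostly had log2 fold changes near 0. Ifng, the gene for interferon-gamma itself, had 0, 1 and 1 counts in knockout libraries 1 to 3 and 1, 0 and 0 counts in wild type libraries 1 to 3, too few to test. Of 9 tested pathway genes, edgeR called 0 and DESeq2 called 1. Among the 12032 genes with an adjusted p, DESeq2 called 438 in either direction. At an unadjusted p below 0.05, 2 were lower and 0 higher, against 7.35% and 8.10% of all genes. Irf8, a transcription factor of myeloid cells, was at -0.39 ± 0.16 (SE, edgeR adjusted p = 0.287). Ifngr1, Ifngr2, Jak1 and Jak2 had log2 fold changes between -0.06 and 0.03, and Irf1 -0.08 ± 0.14 (SE).

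Other genes induced by interferons also had mostly negative log2 fold changes. Of 16 tested interferon-gamma targets outside the families, 15 had a log2 fold change below 0, at a median of -0.56, and 10 were lower at an unadjusted p below 0.05. Cxcl9, a chemokine that attracts T cells, fell to 7.003 ± 0.456 CPM in knockout livers, against 14.6 ± 1.2 CPM in wild type livers (SD, n = 3 each). It was the 1 gene called (edgeR adjusted p = 0.0257). Cxcl10, a related chemokine, was at 1.78 ± 0.22 CPM in knockout and 3.90 ± 0.19 CPM in wild type livers (SD, n = 3 each; edgeR adjusted p = 0.0596). Of 24 genes of the type I interferon response, 22 were below 0, at a median of -0.54, and 14 were lower at an unadjusted p below 0.05. Over all genes tested, 49.7% were below 0, 7.35% were lower at that unadjusted p and edgeR called 0.0878% lower. DESeq2 called 6 of the interferon-gamma targets and 8 of the type I genes, counting either direction. Of the 12032 genes with an adjusted p it called 438 in either direction and 1.73% lower. Irf7 was the 1 type I gene that edgeR called (adjusted p = 0.0489). It was at 35.3 ± 5.6 CPM in knockout and 62.4 ± 1.9 CPM in wild type livers (SD, n = 3 each). Rsad2, the gene for viperin, was at -0.93 ± 0.14 (SE, edgeR adjusted p = 0.0547). With 1 library left out, Cxcl9 was called only without wild type library 3, at an adjusted p of 0.0381 against 0.0522 to 0.130 without any of the others, and Irf7 in 0 of 6 such fits, at 0.0544 to 0.195 by edgeR.

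Genes that work with these GTPases had log2 fold changes closer to 0. The autophagy proteins Atg3, Atg5, Atg7 and the Atg12 and Atg16l1 complex are needed in mouse cells for Irg and Gbp proteins to reach vacuoles. Of 15 such autophagy and ubiquitin genes edgeR called 0, with a median of -0.01. At an unadjusted p under 0.05, 0 were lower and 3 higher, against 7.35% and 8.10% of all genes. DESeq2 called 0. Atg3 was at 80.2 ± 0.9 CPM in knockout and 65.9 ± 3.9 CPM in wild type livers (SD, n = 3 each, edgeR adjusted p = 0.166), and Atg16l1 at 49.9 ± 2.7 CPM in knockout and 42.6 ± 2.0 CPM in wild type livers (edgeR adjusted p = 0.269). Of 8 inflammasome genes edgeR and DESeq2 called 0, with a median of -0.26. At an unadjusted p below 0.05, 2 were lower, as were 7.35% of all genes. Nlrp3, a sensor, was at -0.67 ± 0.25 (SE) and Casp1, the protease it activates, at -0.55 ± 0.20 (SE), while Casp4, the caspase that binds lipopolysaccharide, was at -0.03 ± 0.25 (SE).

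**Figure D4:**
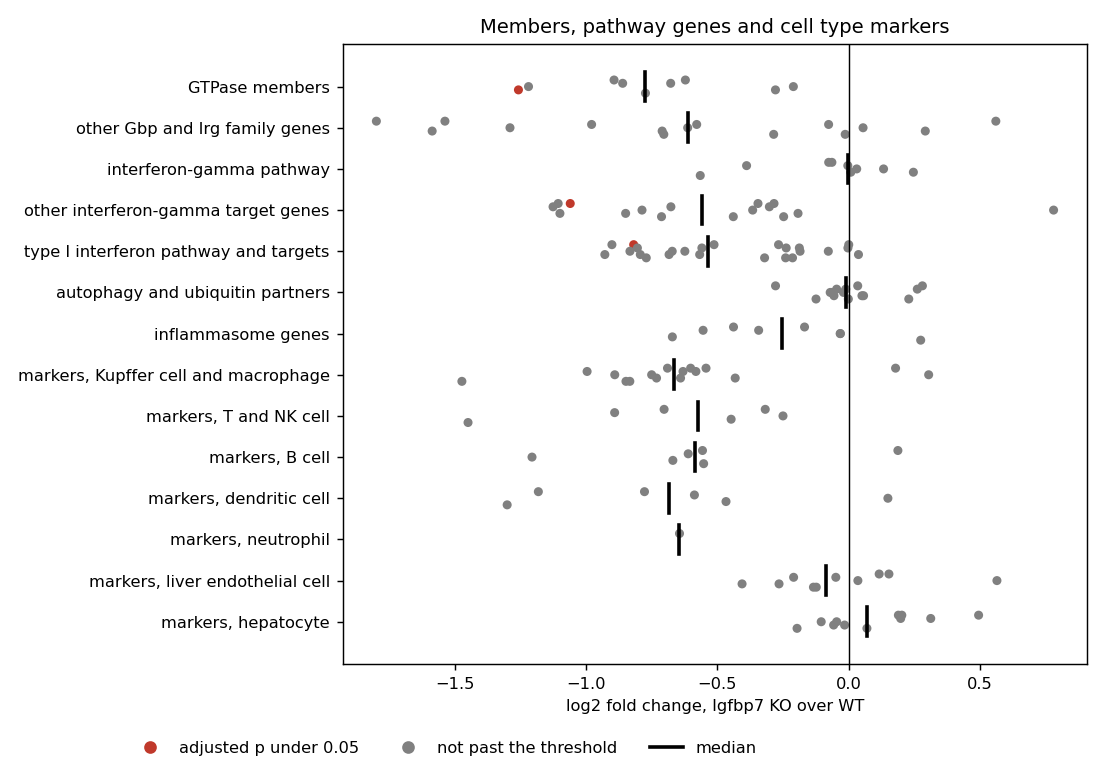
Log2 fold change of knockout over wild type livers (x axis) for each tested gene of the members, the pathway lists and the cell type marker lists (rows), with called genes in red and the list median as a black bar. The medians of the GTPases (-0.77), interferon-gamma targets (-0.56), type I genes (-0.54) and Kupffer cell markers (-0.67) lie left of 0, and those of the interferon-gamma pathway (-0.003), endothelial (-0.09) and hepatocyte markers (0.07) lie near it.

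Markers of immune cells also had lower summed levels in the knockout livers. Fewer cells of a type and less RNA per cell cannot be told apart in bulk tissue. Of 16 Kupffer cell and macrophage markers 14 were below 0, at a median of -0.67, and none was at 0 counts in all libraries. Their summed level was 685 to 967 CPM in knockout and 1025 to 1114 CPM in wild type livers. By library it was 777, 685 and 967 CPM in knockout libraries 1 to 3 and 1114, 1097 and 1025 CPM in wild type libraries 1 to 3. T and NK cell markers summed to 5.20 to 6.77 CPM in knockout and 9.35 to 10.95 CPM in wild type livers, and 6 of 16 could be tested, all 6 below 0. B cell markers summed to 4.64 to 5.20 CPM in knockout and 6.29 to 8.40 CPM in wild type livers, with 5 of 6 tested below 0. Dendritic cell markers summed to 29.7 to 49.8 CPM in knockout and 67.9 to 102 CPM in wild type livers, with 5 of 6 tested below 0. That sum mainly follows 2 MHC class II genes that interferon-gamma also induces. H2-Ab1 was at means of 15.1 CPM in knockout and 37.1 CPM in wild type livers, and H2-Aa at 18.4 and 41.7 CPM. Clec9a, the next highest marker, was at 4.18 ± 0.62 CPM in knockout and 3.78 ± 0.92 CPM in wild type livers (SD, n = 3 each). Neutrophil markers summed to 2.13 to 2.65 CPM in knockout and 2.80 to 5.42 CPM in wild type livers. This sum mainly follows Csf3r, the 1 of 7 markers that could be tested, whose log2 fold change was -0.64 ± 0.23 (SE). Liver endothelial markers overlapped, at 536 to 603 CPM in knockout and 567 to 597 CPM in wild type livers, with 6 of 10 below 0. Of all these markers edgeR called 0. At an unadjusted p below 0.05, 14 macrophage, 2 T and NK cell, 3 B cell, 3 dendritic cell, 1 neutrophil and 1 endothelial marker were lower. Of all genes, 7.35% were. DESeq2 called 11 macrophage and 2 dendritic cell markers lower, and 1.73% of all genes. The part of these cells in the GTPase result was not tested.

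**Figure D5:**
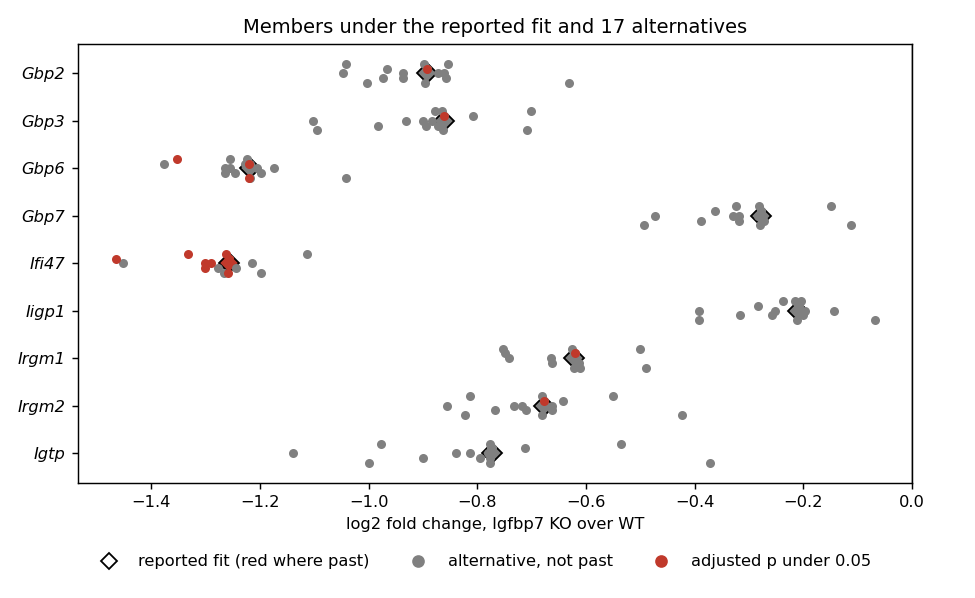
Log2 fold change of knockout over wild type livers (x axis) for the 9 tested members (rows) under the reported fit (diamonds) and 17 alternatives (dots), red where the adjusted p was under 0.05. All values lie below 0, Ifi47 is past the threshold in 10 of 17 alternatives, and Gbp7, Igtp and Iigp1 in 0.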

How the data were processed

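Adult liver RNA of 3 Igfbp7 knockout and 3 wild type samples was sequenced after TruSeq library preparation, per the labels. The deposited files hold raw counts of reads for each gene, with 1 file for each library. Tools listed in the submitters' processing notes are TopHat2 2.0.8b, HTSeq and CASAVA 1.8.2, and the builds listed are mm9 and hg19. Annotation and strandedness: not given in the sources used here. Rows naming no gene were left out; reads outside genes were 9.65% to 12.5% of uniquely placed reads, and alignments at several places, 1.49 to 2.65 per gene count, are not in gene counts, which lowers genes with near-identical copies. Depth was 16712568 to 22419411 gene counts per library, and floors cover counting error only.

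Counts were tested with edgeR 4.0.16 (R 4.3.3): filterByExpr with a minimum count of 10 (12522 genes), TMM, a quasi-likelihood fit with genotype as the only term, 2-sided tests, and Benjamini-Hochberg adjustment over all genes at 0.05. Standard errors come from the F statistic. Log2 CPM used a prior count of 2. Alternatives included DESeq2 1.42.0 and limma-voom (limma 3.58.1). The genes named are Igfbp7, the 10 members, from each pathway list the called genes and the 2 with the lowest p, family relatives, and the 5 nearest profiles; Ifng, its receptor and kinase genes, Irf1 and Casp4 were chosen after their values were seen. 1 gene that the rule names is not reported here. Members and lists were chosen with earlier results of these data known. Exon lengths and shared 50-base words come from GENCODE M21, and promoters and current gene names from RefSeq (GRCm38.p6). The motif search covered both strands.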

Additional observations from a re-analysis of the deposited data

How the results depend on the processing

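All 9 tested members kept a log2 fold change below 0 under each of the 17 alternatives run. The number of members called lower, 1 as reported, was 2 with no filter on low counts, 6 by DESeq2, 0 with the clock score as a covariate and 0 without wild type library 1 and knockout library 2 together, an alternative chosen after seeing the data. It was 0 to 2 with 1 library left out. The number of all genes called, 27 as reported, was 133 with no filter, 438 by DESeq2, 1 with the clock score, 1 without those 2 libraries together, and 3 to 36 with 1 library left out. With the replicate number as a block, 0 members and 1 gene in all were called, and Ifi47 had an edgeR adjusted p of 0.0569. Deviations of same-numbered libraries correlated at -0.08, -0.10 and -0.04, and those of other pairs at up to 0.12. These are deviations from means of 3 libraries and cannot show whether the numbers pair the samples, which is not given. The median of the members ran from -0.90 to -0.49 with 1 library left out, lowest in size without wild type library 2. The adjusted p of Ifi47 ran from 7.83e-09 (DESeq2) to 0.368 (clock score). Among single genes, 4 values changed sign. Atl1 was at -0.0166 with the clock score and -0.0352 to 0.177 with 1 library left out, and Atl3 at -0.0754 to 0.0465. Total-count scaling moved the median of all genes to -0.05. The cause of these changes was not tested. Gbp6, Gbp10, Tgtp1 and Tgtp2 are limited by shared reads. Members with genotype means of 3 to 11 CPM are limited by counts of 62 to 275 per library.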

Other observations

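The atlastins are membrane-fusing GTPases of the endoplasmic reticulum related to the guanylate-binding proteins but not known as interferon-induced genes. Atl2 was at 167 ± 21 CPM in knockout and 136 ± 17 CPM in wild type livers (SD, n = 3 each). Its log2 fold change was 0.29 ± 0.13 (SE, edgeR adjusted p = 0.320), with all knockout values above all wild type values (10.7% of all genes), and it was 0.19 without knockout library 3 and 0.19 without wild type library 1. Atl3 was at 176 ± 7 CPM in knockout and 178 ± 15 CPM in wild type livers (SD, n = 3 each), and Atl1 at 2.25 ± 0.11 CPM in knockout and 2.18 ± 0.32 CPM in wild type livers. The pseudogene Gbp11 varied more within genotypes than any tested member, at 7.004, 20.6 and 12.9 CPM in knockout libraries 1 to 3 and 22.9, 29.7 and 7.33 CPM in wild type libraries 1 to 3.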
